A study of Mus musculus with 18 samples.

Results

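Creld1 conditional knockout (cKO) CD4+ T cells that had been stimulated in culture for 8 h were compared with cells of the same genotype taken fresh from the spleen. The comparison rests on 6 of the 18 RNA sequencing libraries of the series, 3 stimulated and 3 fresh. It covers every gene whose deposited log2 value reached log2(10), which is 3.32, in at least 3 of the 18 libraries, a rule that kept 10877 of 15137 genes, or 71.9%. A further 3 libraries, from Creld1 cKO cells held for 8 h without stimulation, were used to say which differences needed stimulation. Stimulated cells received antibodies to CD3 and CD28 at 1 µg/ml for 8 h, unstimulated cells were held in the same medium for 8 h, and fresh cells were not cultured. All mice were C57BL/6J. In cKO mice Cre recombinase driven by Cd4 regulatory sequences deletes Creld1 in developing thymocytes, so other T cells that passed through that stage were targeted as well as the sorted ones. Control mice, of unstated alleles, supplied 3 libraries for each of the same conditions. Cells were sorted by surface markers as naive CD4+ T cells, with CD3+, CD4+, CD25- and CD44- among the gates, and 10 ng of RNA went into each library. The mouse label is the same for all 3 libraries of a group and differs between groups. No label says that the 3 came from separate animals, so p-values rest on the spread among libraries that may be technical repeats.

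T cell receptor and CD28 engagement opens calcium, MAP kinase and NF-kappaB signalling. Immediate-early genes (the Egr, Nr4a, Fos and Jun families) are the first to be transcribed, and genes for cytokines, surface receptors and growth follow. Many immediate-early mRNAs are short-lived, are limited by feedback phosphatases and RNA-binding proteins, and are also induced when tissue is dissociated and cells are sorted. Creld1 encodes a cysteine-rich membrane protein with EGF-like domains, known for its part in heart development.

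Creld1 itself (chr6:113483297-113493343, plus strand, build GRCm38) was low in every library. Its log2 value was 4.14, 4.62 and 4.37 in stimulated cKO libraries, 3.95, 4.33 and 3.82 in unstimulated cKO libraries, and 4.19, 3.70 and 4.40 in fresh cKO libraries. Control libraries had 4.41, 5.10 and 4.71 when stimulated, 4.81, 4.88 and 5.40 when unstimulated, and 4.33, 4.85 and 4.57 when fresh. The genotypes separated in unstimulated culture and overlapped in the stimulated and fresh groups. Which part of the gene the deletion removes is not stated in the sources used here, so these values are a weak check of the labels. Within the cKO, stimulated and fresh cells differed in Creld1 by 0.28 ± 0.23 on the log2 scale (SE; limma adjusted p = 0.365).

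The cells carried the CD4 T cell markers of their label, and also some markers of other cells and states. All 8 CD4 T cell markers in the table reached the minimum, and their summed linear level was 43100 to 45420 in stimulated libraries against 37290 to 43790 in fresh ones. Of the B cell markers, 3 of 13 reached it, with sums of 91.07 to 104.2 in stimulated and 71.08 to 108.2 in fresh libraries, and Pax5 stayed below it. Of the CD8 T and NK cell markers, 5 of 14 reached it, with sums of 458.6 to 521.1 in stimulated and 438.4 to 489.7 in fresh libraries, while Cd8a and Ncr1 did not. The highest means in fresh libraries were 7.45 for Klrd1, 6.865 for Prf1 and 6.49 for Cd8b1. Of the myeloid markers, 5 of 13 reached it, with sums of 1124 to 1250 in stimulated and 1195 to 1268 in fresh libraries, while Csf1r and Adgre1 did not. Here Ctss and Cst3 were highest, with means of 9.98 and 6.93 in fresh libraries. Of the regulatory T cell markers 11 of 12 reached it, with sums of 1664 to 1957 in stimulated and 1308 to 1950 in fresh libraries, and of the memory and effector markers 17 of 22, with 6458 to 6866 in stimulated and 6598 to 7698 in fresh libraries. Although the gates were CD44- and CD25-, mRNA of Cd44 and of Il2ra, the gene of CD25, had means of 8.32 and 6.50 in fresh libraries. Those of Ctla4 and Foxp3 were 8.92 and 6.055. Of the red cell and platelet markers, 1 of 4 reached it, with 154.8 to 221.8 in stimulated and 169.9 to 202.4 in fresh libraries.

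Among the libraries the third fresh one stood apart, its log2 values differing from the mean of the other fresh libraries with an SD of 0.559 over the tested genes, where this SD was 0.169 to 0.409 in the other cKO libraries. The slope of log2 value on transcript GC content, per SD of GC, was -0.29, -0.11 and -0.11 in stimulated libraries, -0.39, -0.33 and -0.45 in unstimulated ones and -0.45, -0.57 and -0.10 in fresh ones. The stimulated slopes lay above all the unstimulated ones (two-sided exact permutation test, p = 0.1, the smallest that 3 against 3 allows) and overlapped the fresh ones (p = 0.4). The summed linear value was lower in every stimulated library (6872003 to 6955387) than in any fresh one (7321813 to 7419367). So was the share of that sum held by the 100 highest genes, at 18.46 to 19.19% against 19.72 to 22.45%. For each of these measures the two-sided exact permutation test gave p = 0.1. Slopes on transcript length and the shares of cytosolic ribosomal protein and mitochondrially encoded genes overlapped between these groups. The part of these library differences in the results was not tested, and counts of called genes that move by over 1.5 times with the third fresh library are given with and without it.

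**Figure D1:**
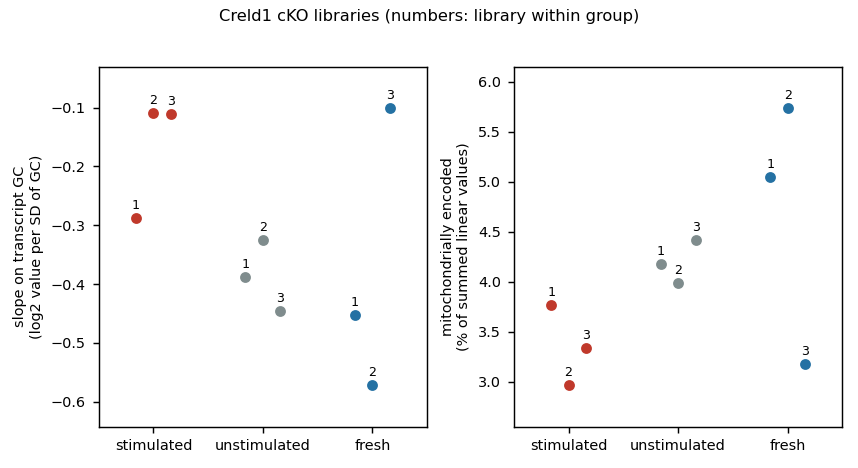
Left, slope of the deposited log2 value on transcript GC content in each Creld1 cKO library, in log2 units per SD of GC. Right, share of the summed linear values held by the mitochondrially encoded genes, in %. Points are libraries, numbered within their group, with stimulated cells first. The third fresh library, at -0.10 and 3.18%, sits with the stimulated libraries and away from the other fresh ones on both measures.

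Genes were called in both directions between stimulated and fresh cells, and the few largest differences were falls. At an adjusted p under 0.05 (limma, Benjamini-Hochberg), 1581 genes were higher in stimulated than in fresh cKO cells, 14.5% of those tested, and 1713 were lower, 15.7%. The median difference over all genes was 0.04 on the log2 scale, and the median size of a called difference was 0.53. Of the called genes, 172 were higher and 133 lower by at least 1 on that scale. A difference shown to be larger than 2-fold (limma's treat test, adjusted p under 0.05) was rarer, in 3 genes that were higher, 0.0276% of those tested, and 23 that were lower, 0.211%. Without the third fresh library the first test called 3154 genes higher and 2645 lower, 5799 in all, and the second test 35 genes. With each library centred on its median the first test called 1237 higher and 1905 lower. The median SD within groups was 0.0846 for genes with values below 0 and 0.228 for those between 4 and 6, so the deposited values appear compressed at the low end, and differences of weakly expressed genes may be understated. In whole cell populations, fewer cells of a type and less RNA per cell cannot be told apart.

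**Figure D2:**
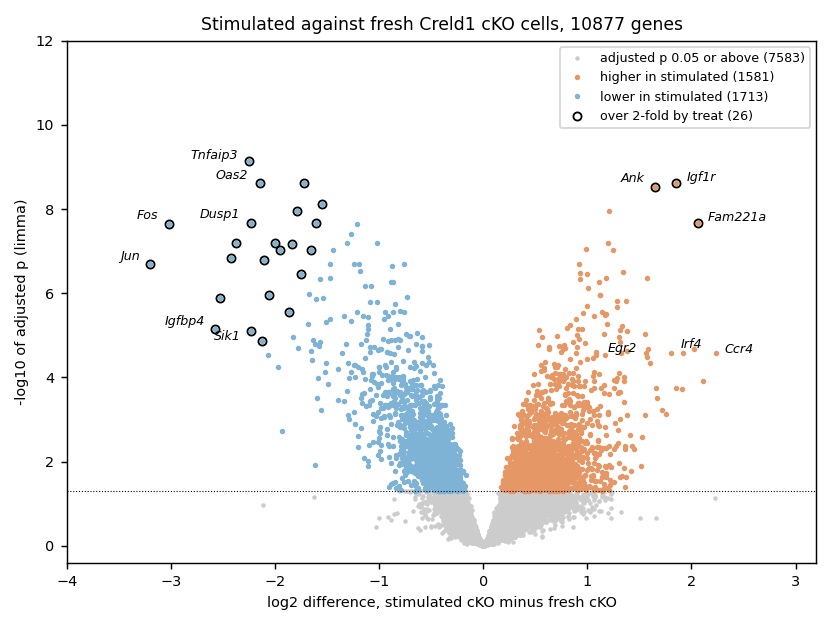
Difference between stimulated and fresh Creld1 cKO cells for the 10877 genes tested, as a log2 difference on the x axis and -log10 of the limma adjusted p on the y axis. Orange and blue points passed 0.05 and circles mark the 26 genes shown to differ by over 2-fold, of which Jun and Fos lie farthest left.

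Jun and Fos, which pair to form the AP-1 transcription factor, had the largest falls of all called genes. Fos, whose protein pairs with Jun proteins, had log2 values of 7.82, 8.16 and 8.44 in stimulated libraries, against 11.11, 11.02 and 11.36 in fresh libraries. It was 8.13-fold lower (log2 difference -3.02 ± 0.18, SE; limma adjusted p = 2.22e-08). Jun had 7.0, 7.38 and 7.36 in stimulated libraries, against 10.20, 10.00 and 11.13 in fresh ones, and was 9.20-fold lower (-3.20 ± 0.24, adjusted p = 2.01e-07). The groups did not overlap for either gene. Fosb, another partner of Jun, fell by 2.53 on the log2 scale. The unstimulated cultures were low as well, at 7.59, 7.74 and 7.91 for Fos and 6.68, 7.05 and 6.89 for Jun. Klf4, a zinc finger factor that keeps naive T cells quiescent, had 4.81, 4.94 and 4.93 in stimulated libraries, against 7.05, 7.37 and 7.39 in fresh ones, and was 5.21-fold lower (-2.38 ± 0.16, adjusted p = 6.28e-08). Klf6, another member of that family, fell by 1.60 and the bZIP repressor Maff by 1.64. Junb had 6.78, 7.89 and 8.04 in stimulated libraries, against 8.13, 8.31 and a single high 11.14 in fresh libraries, and was not called (-1.62 ± 0.66, adjusted p = 0.0713). The first and second fresh libraries lay close above the highest stimulated one, so the size of this fall leans on the third. Without the first fresh library, where the third weighs more, Junb was called (-2.15).

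Other early factors went the opposite way, and the list of 25 tested early transcription factors split into 10 that were higher, 8 that were lower and 7 not called. Calls covered 72% of that list, against 30.3% of all genes tested. Irf4, which sets the strength of the effector programme, had 10.70, 10.86 and 11.17 in stimulated libraries, against 9.10, 8.98 and 9.26 in fresh ones, and was 3.48-fold higher (1.8 ± 0.22, adjusted p = 2.60e-05). Egr3 was 3.04-fold higher (1.60 ± 0.20, adjusted p = 4.44e-05) and Egr2 2.98-fold higher (1.57 ± 0.19, adjusted p = 3.35e-05). Both are zinc finger factors that act downstream of calcium and MAP kinase signals and limit T cell activation. The nuclear receptor Nr4a3 rose by 1.21. Its relative Nr4a1, often used as a reporter of receptor signalling, had 10.21, 10.84 and 11.16 in stimulated libraries against 10.29, 9.90 and 11.78 in fresh ones, and Myc had 8.09, 8.65 and 8.72 against 8.63, 8.30 and 8.91. Neither was called, with adjusted p of 0.894 for Nr4a1 and 0.619 for Myc. With the GC slope as a covariate Nr4a1 was called lower, at -0.75. The list's median difference was -0.12, against 0.04 over all genes, and it was 0.40 without the third fresh library, when 11 members were higher and 8 lower. It was -0.40 with the GC slope as a covariate, when 9 were higher and 13 lower, and -0.54 with both changes, when 5 were higher and 12 lower.

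Feedback regulators of signalling moved both ways, with large falls in a few. Dusp1, a phosphatase that switches off MAP kinases, had 8.12, 8.34 and 8.25 in stimulated libraries, against 10.44, 10.24 and 10.74 in fresh ones, and was 4.71-fold lower (-2.24 ± 0.13, adjusted p = 2.11e-08). Its relatives Dusp10, Dusp5 and Dusp6 fell by 1.54, 1.35 and 1.11. Spry1, Dusp16 and Spred2, which also restrain MAP kinase signalling, rose by 1.07, 0.84 and 0.40, and the phosphatase gene Dusp22 by 0.63. Of 14 tested members of this list 4 were thus higher and 4 lower, with a median of 0.05. Calls covered 57.1% of these 14, against 30.3% of all genes tested. Tnfaip3 encodes A20, a ubiquitin-editing brake on NF-kappaB. It had the smallest p of all genes and was highly expressed, with 11.23, 11.27 and 11.40 in stimulated libraries, against 13.47, 13.55 and 13.65 in fresh ones, a 4.77-fold difference (-2.25 ± 0.09, adjusted p = 7.38e-10). In the NF-kappaB list of 26 genes 4 rose and 4 fell, Tnfaip3 among them, with a median of 0.16. Calls covered 30.8% of this list, near the 30.3% of all genes tested. The atypical inhibitor Nfkbiz fell by 1.24, Chuk by 0.47 and Bcl10 by 0.38. Nfkb2, Relb, Tnip2 and Traf1 rose by 1.36, 1.17, 0.82 and 0.55. The libraries of Traf1 overlapped, and its call was lost, at 0.44 to 0.50, without the third stimulated or the first or second fresh library. In the NF-kappaB list 12 members were higher and 6 lower without the third fresh library, 6 and 8 in a fit that included the GC slope, and 3 and 6 with both changes. Further falls of over 2-fold came from Rgs1 (regulator of G protein signalling), which dampens chemokine receptor signals and was 4.32-fold lower (-2.11 ± 0.15, adjusted p = 1.58e-07), and from its relative Rgs2, lower by 1.72. The salt-inducible kinase Sik1 fell by 2.23, the polo-like kinase Plk2 by 1.66 and the ubiquitin ligase Siah2 by 1.79.

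**Figure D3:**
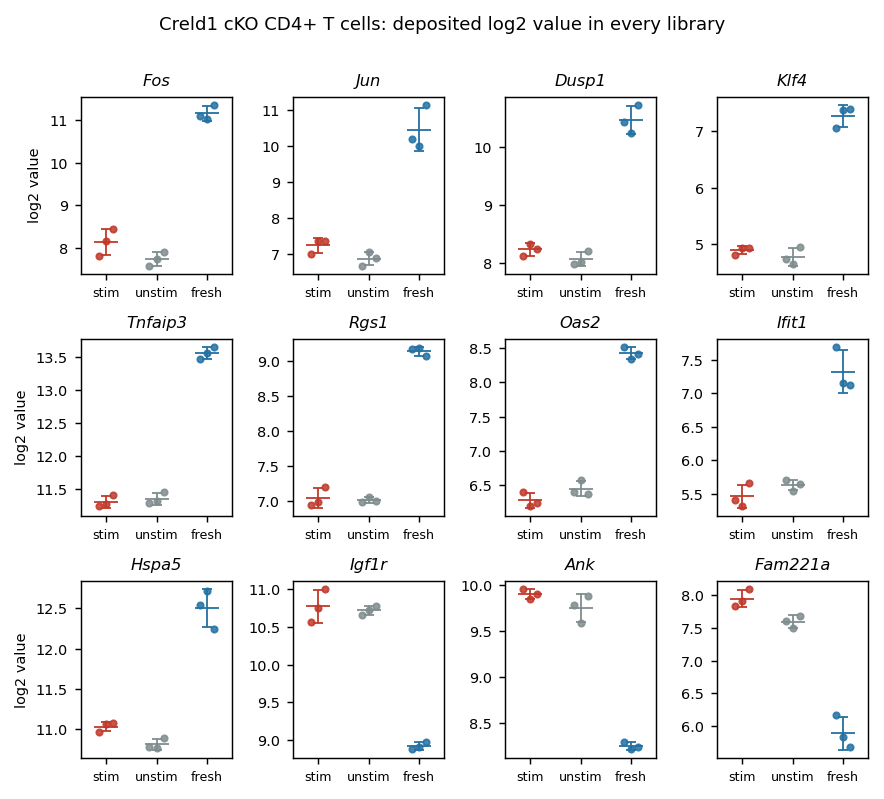
Deposited log2 value of 12 genes in every Creld1 cKO library, with stimulated, unstimulated and fresh cells from left to right. Points are libraries, the horizontal mark is the mean and the bar is 1 SD (n = 3). In 9 panels the fresh libraries lie above both cultures and in 3 (Igf1r, Ank and Fam221a) below them, and the scale differs between panels.

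The promoters of 3 of these genes are shown because motifs for inducible factors lie close to their start sites. The bases just before the annotated start were read from RefSeq windows of mouse build GRCm38.p6, 5′ to 3′ along the gene, at chr12:85473750-85473889 (plus strand) for Fos, chr17:26508473-26508632 (minus strand) for Dusp1 and chr10:19015411-19015550 (minus strand, 1 of 2 listed starts) for Tnfaip3. Capitals mark TGACG in Fos, TGACGTCA in Dusp1, and in Tnfaip3 TGANTCA, the AP-1 motif, followed by a pair of NF-kappaB motifs. The Tnfaip3 start was taken as the first listed whose window holds both kinds of motif.
Fos: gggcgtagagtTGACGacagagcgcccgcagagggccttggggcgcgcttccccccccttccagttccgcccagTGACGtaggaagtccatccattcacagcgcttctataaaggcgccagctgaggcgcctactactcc
Dusp1: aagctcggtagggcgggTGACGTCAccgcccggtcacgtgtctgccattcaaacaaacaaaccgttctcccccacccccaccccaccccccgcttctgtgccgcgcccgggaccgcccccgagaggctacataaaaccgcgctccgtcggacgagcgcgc
Tnfaip3: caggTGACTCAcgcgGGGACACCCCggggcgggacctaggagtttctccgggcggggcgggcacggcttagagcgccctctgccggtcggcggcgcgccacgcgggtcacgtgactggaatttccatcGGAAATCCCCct

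TGACGTCA is the cAMP response element bound by CREB-family factors, and TGACG is one side of it, so each match to the longer motif also counts as TGACG. Counting from the base before the start as -1, TGACG lies at -129 to -125 and -66 to -62 in Fos, TGACGTCA at -143 to -136 in Dusp1, and the Tnfaip3 motifs at -136 to -130, -125 to -116 and -12 to -3. On both strands of the 250 bases before the start, TGACG was found in 17.8% of all 32851 RefSeq windows, TGACGTCA in 1.55%, TGANTCA in 6.75% and the NF-kappaB motif in 3.90%. Of the 23 genes lower by over 2-fold, 14 had a window, and TGACG was found for 9 of them (Fos, Fosb, Dusp1, Tnfaip3, Klf4, Dnajb9, Rgs2, Plk2 and Trim13), against 31.6% of tested genes with a window. The motif was not particular to falls. In the early transcription factor list, which also holds Fos and Fosb, it was found for 11 of 18 genes with a window, or 61.1%. Among these were Egr2, Nr4a3 and Nr4a1, which rose or were not called. A match describes these letters and does not show a bound site.

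Interferon-stimulated genes, which encode antiviral and antigen-processing proteins, were lower in stimulated than in fresh cells throughout. Of 34 tested members of the list, 26 fell, none rose and all 34 had a negative difference, with a median of -0.79. Calls covered 76.5% of the list, against 30.3% of all genes tested. Oas2, a sensor of double-stranded RNA outside that list, had 6.40, 6.20 and 6.24 in stimulated libraries, against 8.52, 8.34 and 8.42 in fresh ones, and was 4.41-fold lower (-2.14 ± 0.10, adjusted p = 2.40e-09). Ifit1, which binds foreign RNA, had 5.41, 5.32 and 5.65 in stimulated libraries, against 7.70, 7.15 and 7.13 in fresh ones, and was 3.64-fold lower (-1.86 ± 0.18, adjusted p = 2.83e-06). Rtp4, Ifi44 and Ifit3 fell by 1.61, 1.52 and 1.51, and the guanylate-binding proteins Gbp6 and Gbp10 by 1.84 and 2.06. The transcription factor Irf7, which drives this programme, fell by 1.16. The unstimulated cultures were low too, at 5.70, 5.54 and 5.65 for Ifit1, and the list's median there was -0.78 against fresh cells, with 25 members lower. These medians share the fresh libraries. Stimulated and fresh libraries did not overlap for any gene named here.

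The promoter of Ifit1 is shown because it carries the motif named for these genes. The bases before its start lie at chr19:34640769-34640888 (plus strand, GRCm38.p6, RefSeq), and the capitals mark GAAANNGAAA, the core of the interferon-stimulated response element, which here reads on the opposite strand at -104 to -95 and -85 to -76.
Ifit1: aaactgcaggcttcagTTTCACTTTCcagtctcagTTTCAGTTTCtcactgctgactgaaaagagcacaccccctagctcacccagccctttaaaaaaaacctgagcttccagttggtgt

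GAAANNGAAA was found on either strand in 2.98% of all windows and for 3.40% of tested genes with a window. Of the 34 interferon-stimulated genes, 26 had a window and 14 of these held the motif, or 53.8%. The list was drawn up from genes known to respond to interferon, so this share describes the list and tests nothing.

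Protein-folding genes fell as well. Of 21 tested cytosolic chaperones, 17 were lower and none higher, with a median difference of -0.51. Calls covered 81% of that list, against 30.3% of all genes tested. The abundant Hspa8, a constitutive Hsp70, had values of 12.97 to 13.08 in stimulated libraries, against 13.79 to 14.32 in fresh ones (-0.99 ± 0.12, adjusted p = 2.10e-05). The inducible Hsp90 gene Hsp90aa1 fell by 1.02, and the co-chaperones Hsph1 and Dnaja1 by 1.05 and 1.16. In the endoplasmic reticulum list, 9 of 23 genes fell and 1 rose, so calls covered 43.5% of it. Hspa5, the lumenal chaperone BiP, had 10.97, 11.06 and 11.08 in stimulated libraries, against 12.55, 12.72 and 12.25 in fresh ones, and was 2.77-fold lower (-1.47 ± 0.11, adjusted p = 2.01e-07). Its co-chaperone Dnajb9 was 5.36-fold lower (-2.42 ± 0.18, adjusted p = 1.44e-07). The stress transcription factors Atf4 and Xbp1 fell by 0.94 and 0.52, and Trib3, a target of Atf4, rose by 1.03. Ddit3, a death-promoting factor of this response, and Creld2, a relative of Creld1, were not called (0.06 and 0.20), although Ddit3 was called lower, at -0.28, with the GC slope as a covariate. Ppp1r15a, which reverses the block on translation initiation in this stress response, had 9.10, 9.22 and 9.45 in stimulated libraries, against 11.05, 10.61 and 12.04 in fresh ones (-1.97 ± 0.26, adjusted p = 5.72e-05). A list of 15 genes that respond to cell handling, which shares Fos, Jun, Fosb, Dusp1 and Egr1 with the lists above, had 8 members lower, 2 higher and a median of -0.88. Calls covered 66.7% of that list. Its heat shock gene Hspa1b had 3.02, 2.96 and 3.51 in stimulated libraries, against 3.80, 4.26 and 6.30 in fresh ones. With the third fresh library left out, 14 of the endoplasmic reticulum genes were lower and 2 higher, and 17 chaperones were lower and 2 higher.

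**Figure D4:**
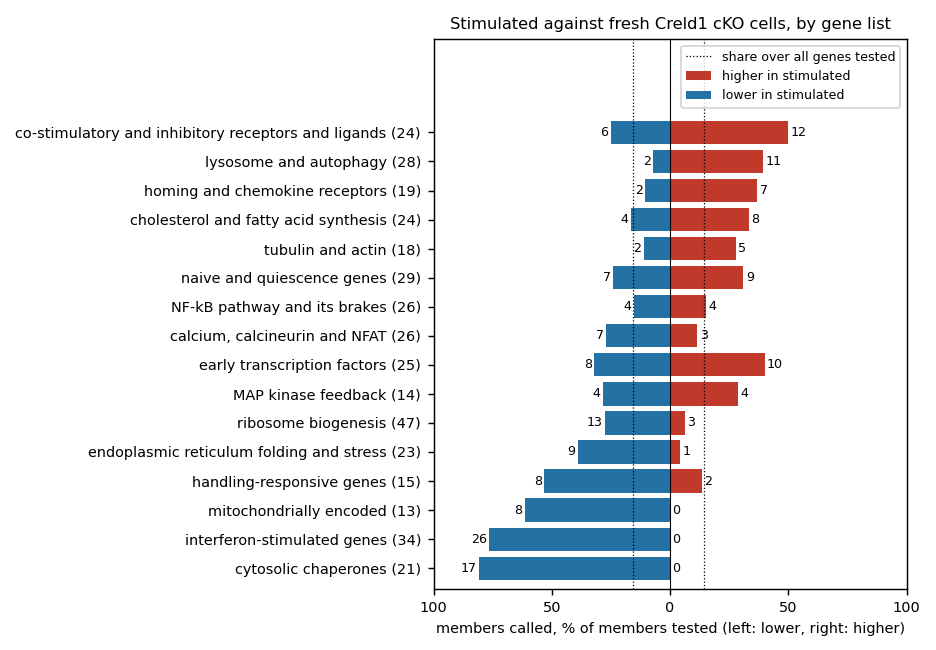
Share of the tested members of 16 gene lists called higher (right) or lower (left) in stimulated than in fresh Creld1 cKO cells, in % of the members tested, with the number of members called beside each bar and the number tested in brackets. Dotted lines mark the shares over all genes, 14.5% higher and 15.7% lower. Cytosolic chaperones, interferon-stimulated genes and mitochondrially encoded genes have no member on the higher side, and co-stimulatory receptors and lysosomal genes have their longer bars there.

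Further large falls came from genes of varied function. Igfbp4, which binds insulin-like growth factors and marks naive CD4 T cells, had 7.90, 8.25 and 8.34 in stimulated libraries, against 10.45, 10.31 and 11.46 in fresh ones, and was 5.98-fold lower (-2.58 ± 0.27, adjusted p = 7.18e-06). The monocarboxylate transporter Slc16a5 fell by 2.00, the coronin Coro2a by 2.07 and Dtx1, a ubiquitin ligase of the Notch pathway, by 1.93. Treml2, Bambi, Trim13 and Clspn, with Klf6, Rgs2, Siah2, Gbp6 and Gbp10 above, were singled out after their values were seen because they complete the 23 genes lower by over 2-fold. They fell by 1.55, 1.96, 1.75 and 2.13. Clspn, whose product signals stalled DNA replication, and Bambi, a decoy receptor for TGF-beta, were weakly expressed in stimulated libraries, with means of 3.66 for Clspn and 4.21 for Bambi.

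The largest rises included the receptor for insulin-like growth factor. Igf1r had 10.57, 10.75 and 11.01 in stimulated libraries, against 8.88, 8.90 and 8.98 in fresh ones, and was 3.62-fold higher (1.85 ± 0.09, adjusted p = 2.40e-09). Ank, a membrane protein that exports pyrophosphate, had 9.96, 9.85 and 9.90 in stimulated libraries, against 8.30, 8.22 and 8.25 in fresh ones, and was 3.14-fold higher (1.65 ± 0.08, adjusted p = 2.95e-09). Fam221a had 7.84, 7.91 and 8.10 in stimulated libraries, against 6.16, 5.83 and 5.67 in fresh ones, and was 4.17-fold higher (2.06 ± 0.12, adjusted p = 2.11e-08). These were the only 3 genes shown to be higher by over 2-fold. Among genes with a mean of at least 6.64 in the higher group Slc39a4, a zinc importer, followed Fam221a at 4.07-fold (2.03 ± 0.24, adjusted p = 2.14e-05), though its excess over 2-fold was not called (treat adjusted p = 0.098). The adaptor Sh3bp2 rose by 1.91, the bZIP gene Mafg by 1.56, Vat1 by 1.58, Tbc1d30, a regulator of Rab GTPases, by 1.57 and Pgpep1l by 1.57. The collagen receptor Ddr1 rose by 1.52, the protease inhibitor gene Wfikkn2 by 1.45 and Wdr90 by 1.43. Wfikkn2 was less even, at 6.45, 7.66 and 7.70 in stimulated libraries against 5.61, 5.44 and 6.41 in fresh ones. Stimulated and fresh libraries did not overlap for any gene named in this paragraph.

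Genes of T cell receptor signalling moved both ways and mostly by small amounts. In the list of receptor components and proximal kinases and adaptors, 7 of 26 rose and 4 fell, with a median of 0.05. Calls covered 42.3% of that list, against 30.3% of all genes tested. Ubash3b and Cblb, which turn receptor signals off, rose by 0.77 and 0.56, and the receptor chain Cd3e by 0.29. Themis, which tunes signal strength in thymocytes, fell by 0.96, the kinase Prkcq by 0.44 and Cd4 by 0.34. The kinase Lck was not called, with a difference of 0.04 (it was called lower, at -0.42, with the GC slope as a covariate), nor was Zap70, with 9.57, 10.13 and 10.14 in stimulated libraries against 8.91, 8.38 and 10.15 in fresh ones. Of 26 calcium and calcineurin genes, 3 rose and 7 fell, so calls covered 38.5% of that list. The calcium pump gene Atp2b4, the calcineurin regulator Rcan3 and the channel gene Orai3 rose by 1.11, 0.90 and 0.77. The calcineurin subunits Ppp3cc and Ppp3r1 fell by 0.67 and 0.55, and the calcium sensor Stim2 by 0.63. Nfatc1 had 10.10, 10.48 and 10.53 in stimulated libraries against 9.79, 9.68 and 10.29 in fresh ones (adjusted p = 0.0609). The channel gene Orai1 had 7.05, 7.86 and 8.07 in stimulated libraries against 6.23, 6.22 and 7.61 in fresh ones (adjusted p = 0.0831), and neither was called. Both passed without the first stimulated library, at 0.59 for Nfatc1 and 1.28 for Orai1, and without the third fresh library, at 0.63 and 1.43, where Zap70 passed too, at 1.30. The call of Cd3e was lost, at 0.27, without the second stimulated or the first fresh library. That of Cd4, whose libraries overlapped, was lost without any 1 of the 6 but the second fresh library, at -0.39 to -0.16. That of Ppp3r1, also overlapping, was lost without the first or second fresh library, at -0.46 and -0.43. Leaving out the third fresh library gave 9 calcium genes higher and 7 lower, and 10 receptor genes higher and 6 lower. With the GC slope as a covariate these were 4 and 11 for the calcium list and 6 and 10 for the receptor list, and with both changes 3 and 8 and 3 and 5.

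Surface receptors of activated T cells were split, and 12 of 24 co-stimulatory and inhibitory members rose and 6 fell, with a median of 0.55. Calls covered 75% of that list, against 30.3% of all genes tested. Pdcd1, the inhibitory receptor PD-1, had 5.84, 6.08 and 6.47 in stimulated libraries, against 4.56, 4.13 and 4.56 in fresh ones, and was 3.28-fold higher (1.72 ± 0.29, adjusted p = 0.000598). The tumour necrosis factor receptors Tnfrsf18, Tnfrsf9 and Tnfrsf4 (GITR, 4-1BB and OX40) rose by 1.18, 1.11 and 1.00, and Cd5, Icos and Cd83 by 0.95, 0.86 and 0.77. Cd69, an early activation antigen, had 9.98, 9.87 and 10.07 in stimulated libraries, against 11.52, 11.59 and 11.23 in fresh ones, and was 2.77-fold lower (-1.47 ± 0.12, adjusted p = 4.32e-07). Cd44, Ctla4 and Cd40lg, also known as activation markers, fell by 1.15, 0.92 and 0.85, and the transferrin receptor Tfrc by 0.54. Cd28 and Btla were not called, at 0.10 and -0.10. Among cytokines, 7 of the 19 in the table reached the minimum, of which Tnf, Il16 and Lif rose by 0.84, 0.64 and 0.64, and without the third fresh library 6 were higher. Calls in all libraries covered 42.9% of the 7. Il2 stayed below the minimum, with 2.37, 2.56 and 2.46 in stimulated libraries against 1.90, 2.06 and 1.99 in fresh ones. The high-affinity interleukin-2 receptor chain Il2ra rose by 0.97 (7.46, 7.31 and 7.64 in stimulated libraries, against 6.70, 6.53 and 6.27 in fresh ones). Calls covered 45.5% of the 22 cytokine receptor and SOCS genes, of which 4 rose and 6 fell. The largest falls were Il15ra at -0.94 and the feedback inhibitor Socs3 at -0.88. Some of these calls rested on single libraries. Tnfrsf18 and Tnfrsf9 were not called without the second fresh library (0.80 and 0.92) or the third stimulated one (1.04 and 0.98), and Tfrc was not without the second stimulated or the first or second fresh library (-0.53 to -0.42). Lif was called only in all 6 libraries and without the first stimulated or the third fresh one, with 0.51 to 0.65 in the other cases, and Socs3 only in all 6 and without the second fresh one, with -0.97 to -0.50 in the other cases. When the third fresh library was left out, 12 co-stimulatory genes were higher and 9 lower, 6 cytokine receptor and SOCS genes were higher and 5 lower, and Btla was called lower, at -0.27. With the GC slope as a covariate as well, 7 co-stimulatory genes were higher and 7 lower, and 2 cytokine receptor and SOCS genes were higher and 8 lower.

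Genes of naive identity and quiescence moved both ways. Of 29 naive and quiescence genes, 9 rose and 7 fell, with a median within 0.01 of 0. Calls covered 55.2% of this list, against 30.3% of all genes tested. They covered 75% of the GIMAP, 47.4% of the homing, 57.1% of the lineage and 51.9% of the Wnt genes below. Il7r and the trafficking factor Klf2 were not called, with differences of 0.11 and -0.17. Tcf7 and Lef1, the transcription factors of naive T cells, rose by 0.30 and 0.29, while Foxo1, which sustains Il7r, fell by 0.81. Tsc22d3, a glucocorticoid-induced leucine zipper gene, fell by 1.44, and the antiproliferative gene Btg1 by 0.70. Id3 rose by 1.36, but its libraries overlapped, at 6.31, 7.18 and 7.38 when stimulated against 5.28, 4.93 and 6.58 when fresh. Of the 8 GIMAP GTPases, which support survival of naive T cells, Gimap9, Gimap1, Gimap3 and Gimap4 rose by 0.80, 0.69, 0.57 and 0.56, and Gimap6 and Gimap7 fell by 0.87 and 0.35. Of 19 homing genes, 7 rose and 2 fell. Ccr4, the receptor for CCL17 and CCL22, had the largest rise of any called gene but was weakly expressed, with 6.20, 6.03 and 6.64 in stimulated libraries, against 4.07, 3.89 and 4.19 in fresh ones (2.24 ± 0.27, adjusted p = 2.60e-05). Cxcr4 fell by 0.94. Lineage factors were split, with 6 of 21 higher and 6 lower. Ikzf4 and Bcl6 rose by 1.32 and 0.76, Eomes fell by 0.60, and Gata3 and Foxp3 were not called (-0.19 and -0.15). Of 27 Wnt pathway genes, 6 rose and 8 fell, led by Csnk1e at 1.06, whose libraries overlapped, and Gsk3b at -0.69. Without the third fresh library 11 of them were higher and 7 lower, 8 of the homing genes were higher and 4 lower, and 12 of the naive genes were higher and 8 lower. With the GC slope as a covariate as well, these were 3 and 6 for the Wnt list, 5 and 5 for the homing list and 8 and 5 for the naive list. Tcf7, Lef1 and Id3 lost their calls without the second or the third stimulated or the first or second fresh library, with ranges of 0.22 to 0.30, 0.23 to 0.29 and 1.03 to 1.25. Csnk1e lost its call without the first or second fresh library (0.94 and 0.74), and Gimap7 without the third stimulated one (-0.24).

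Genes of growth and biosynthesis did not rise together. In the lists of mitochondrial ribosomal proteins, aminoacyl-tRNA synthetases and mitochondrial import, calls covered 12.8%, 10% and 28% of members. In those of ribosome biogenesis, initiation factors and cytosolic ribosomal proteins they covered 34%, 44.4% and 32.9%. Among mitochondrially encoded genes they covered 61.5%. The share over all genes tested was 30.3%. Of 47 ribosome biogenesis genes, 3 rose and 13 fell, with a median of -0.04, and 12 were higher and 18 lower without the third fresh library. The nucleolar genes Gnl3, Nop56 and Nop58 fell by 0.85, 0.68 and 0.64. Of 36 translation initiation factors, 5 rose and 11 fell, with Eif1, Eif4g2 and Eif4a1 lower by 1.09, 0.80 and 0.73 and the inhibitor Eif4ebp1 higher by 0.90, and without the third fresh library 10 were higher and 16 lower. When the GC slope was included as well, none of the ribosome biogenesis genes was higher and 15 were lower, and 1 initiation factor was higher and 8 were lower. Cytosolic ribosomal protein genes were called lower in 25 of 76 cases and higher in none, with Rps12 lower by 1.23, although their median was -0.02. Without the third fresh library, 25 of them were higher and 26 lower, and with quantile normalization 10 were lower and the median was 0.10. With the GC slope as a covariate none was higher and 43 were lower, or 34 without the third fresh library as well. Of the nuclear-encoded subunits of oxidative phosphorylation 11 of 77 fell, a share near that of all genes, and none rose. Without the third fresh library 20 were higher and 19 lower. In a fit that included the GC slope none was higher and 20 were lower, or 19 with both changes. Of 13 mitochondrially encoded genes, 8 fell and all had a negative difference, with mt-Nd2 and mt-Atp8 lower by 0.76 and 0.71, and the median was -0.53. Of these 12 were lower without the third fresh library, with a median of -0.78, 7 with the GC slope as a covariate and 5 with both changes. After quantile normalization 1 was called and the median was -0.14. The calls of mt-Nd2, whose libraries overlapped, and mt-Atp8 were lost without the second stimulated or the first or second fresh library, at -0.67 to -0.57 and -0.64 to -0.53. These genes took 3.36% ± 0.40 of the summed linear values in stimulated libraries and 4.65% ± 1.33 in fresh ones (SD, n = 3 each; two-sided exact permutation test, p = 0.3). Of 78 mitochondrial ribosomal protein genes, 4 rose and 6 fell, and without the third fresh library 22 were higher and 10 lower, against 2 and 7 when the GC slope was included and 0 and 8 with both changes. Of 20 aminoacyl-tRNA synthetases 2 fell, and of 25 genes of mitochondrial import and chaperones 1 rose and 6 fell, among them Hspe1 and Hspd1, the mitochondrial chaperonins, lower by 0.68 and 0.54. Leaving out the third fresh library, the synthetases had 5 higher and 6 lower, and the import list 7 and 9, whereas with the GC slope as a covariate as well none of the import list was higher and 6 were lower.

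Metabolic lists had calls in both directions, and the lysosomal one leaned towards rises. Calls covered 27.3% of the glycolysis list, 33.3% of the amino acid list, 30.4% of the nucleotide list and 28.6% of the proteasome list. These shares were near the 30.3% of all genes tested, and calls covered 50% of the sterol list and 46.4% of the lysosome list. Of 22 glycolysis genes, 3 rose (Aldoa by 1.01, Slc16a3 by 0.82 and Gpi1 by 0.60, with overlapping libraries for Gpi1) and 3 fell, and the rate-setting genes Slc2a1 and Hk2 were not called (0.09 and 0.14), and Slc2a1 was called lower, at -0.41, in a fit that included the GC slope. The polyamine enzyme gene Odc1 fell by 0.93 and the amino acid transporter genes Slc38a2 and Slc3a2 by 0.80 and 0.33, within a list of 21 with 2 higher and 5 lower. Of 23 pentose phosphate and nucleotide genes 2 rose and 5 fell. In sterol and fatty acid synthesis 8 of 24 rose and 4 fell, with a median of 0.22. The regulators Srebf1 and Srebf2 rose by 0.98 and 0.80 with overlapping libraries, whereas the desaturase Scd2 and the sterol exporter Abca1 fell by 0.92 and 0.86. Among 28 lysosome and autophagy genes, 11 rose and 2 fell, with a median of 0.21. Lamp2, a lysosomal membrane protein, had 9.33, 9.14 and 9.16 in stimulated libraries, against 8.16, 8.42 and 7.78 in fresh ones (1.09 ± 0.13, adjusted p = 2.90e-05). The autophagy kinase Ulk1 rose by 0.95 and the protease Ctsd by 0.59. Of 42 proteasome genes, 4 rose and 8 fell, including the interferon-inducible activator subunit Psme1, lower by 0.56. Without the third fresh library the sterol list had 12 higher and 4 lower, the lysosome list 17 and 3, the proteasome list 8 and 16, the glycolysis list 6 and 3, the nucleotide list 8 and 7 and the amino acid list 6 and 8. When the GC slope was included as well, these were 5 and 1, 7 and 1, 2 and 10, 1 and 3, 0 and 6, and 2 and 4. Several of the calls in these lists rested on single libraries. Gpi1, Slc16a3, Srebf1 and Srebf2 lost theirs without the second or the third stimulated or the first or second fresh library, with values down to 0.37, 0.68, 0.65 and 0.58. So did Abca1, at -0.92 to -0.62, while Slc3a2 kept its call only without the third fresh library, with -0.34 to -0.26 in the other cases. Aldoa was not called without the third stimulated or the second fresh library (0.90 and 0.68), nor Ctsd without the second fresh one (0.37).

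Among called genes of the cell cycle more were lower than higher, although the list as a whole did not lean down. Of 37 genes of cell cycle entry and DNA replication, 4 rose and 11 fell, with a median of 0.02 and 19 differences above 0, and of 9 tested mitosis genes only Mki67 was called, lower by 0.63. Calls covered 40.5% of the first list and 11.1% of the second, against 30.3% of all genes tested. Pcna, the replication clamp, had 10.11, 9.99 and 9.99 in stimulated libraries, against 11.07, 11.21 and 10.60 in fresh ones (-0.93 ± 0.12, adjusted p = 5.67e-05). Ccne2 fell by 1.01 and Ccnd2 by 0.65, while the inhibitor Cdkn1a rose by 1.32 and Cdk4 by 0.59. In the Bcl2 and death receptor list, 4 of 20 rose and 5 fell, so calls covered 45% of it. The survival genes Bcl2 and Mcl1 fell by 0.87 and 0.72 and Pmaip1, which opposes Mcl1, by 0.87, while Bcl2l11 rose by 0.33. Bax rose by 1.12 with overlapping libraries (8.16, 8.82 and 9.07 when stimulated, against 7.11, 6.83 and 8.75 when fresh). Of 14 p53 targets, 5 rose and 3 fell, or 57.1% called, with Gadd45a lower by 0.83. Of 18 tubulin and actin genes, 5 rose and 2 fell, or 38.9% called. The beta-tubulin gene Tubb3 rose by 1.75 and Tubb4b by 0.88, and the intermediate filament gene Vim, counted in this list, fell by 1.18. Without the third fresh library 10 of that list were higher and 2 lower, with the GC slope as a covariate 4 were higher and 5 lower, and with both changes 1 was higher and 4 lower. Of 13 regulators of mRNA decay 1 rose and 3 fell, 30.8% of the list against 30.3% of all genes tested. Without the third fresh library 2 were higher and 6 lower. Cdk4 and Bax lost their calls without the second or the third stimulated or the first or second fresh library, with 0.39 to 0.60 for Cdk4 and 0.75 to 1.05 for Bax. With the third fresh library left out the replication list had 7 higher and 10 lower and the p53 list 6 and 5.

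Many of these differences were also found in unstimulated culture. Unstimulated against fresh cKO cells gave 1164 genes higher, 10.7% of those tested, and 1244 lower, 11.4%, with 3322 in all without the third fresh library. Stimulated against unstimulated cKO cells gave 30 genes higher, 0.276%, and 1 lower, 0.00919%. At an unadjusted limma p under 0.05 there were 2511, or 23.1%, so few calls do not show that few genes differed. The count of 31 genes called between the cultures differed widely between fits. Fitted to the 6 libraries compared alone it was 2349, with the GC slope as a covariate 72, without the third fresh library, which is in the fit but not in the contrast, 336, and without any 1 of the unstimulated libraries or the second or the third stimulated one 11 to 13. Each gene called between stimulated and fresh cells was placed by these other comparisons, which share libraries with it. Of the 3294, 1682 were called in the same direction between unstimulated and fresh cells and not between the cultures, and these include all 26 genes that differed by over 2-fold. Some of the 26 still had separate libraries in the 2 cultures. Stimulated cells lay farther from fresh ones for Gbp10, Klf6, Treml2, Fam221a and Rgs2, by 0.80, 0.35, 0.33, 0.35 and 0.14. They lay closer for Sik1, Fosb and Slc16a5, by 0.52, 0.38 and 0.24. With library weights 11 of the 26 were in this class. Of the 3294, a further 23 were called in the same direction between the cultures and not in that direction between unstimulated and fresh cells, and these are termed genes that needed stimulation. The term rests on a threshold, and a missed call does not show that a gene stayed level in culture. Unstimulated libraries of Ccr4 and Tnip2 lay above the fresh ones without overlap, by 0.52 and 0.27, and were not called. Only Snn was called in the same direction in both, rising by 0.60 in culture and by a further 0.58 with stimulation. Dusp6, Sytl2 and Lcp2 were called lower in unstimulated than in fresh cells and higher in stimulated than in unstimulated cells, so that the stimulated level lay between the other 2 groups. The remaining 1585 were called in neither, with median differences of 0.24 in culture and 0.36 with stimulation among the 791 that were higher. Of the 1585, 565 differed between the cultures in the same direction at an unadjusted limma p under 0.05. The 23 genes that needed stimulation were counted apart from these. Together with Snn, which needed stimulation for only a part of its rise, these genes numbered 24. That number was 236 without the third fresh library, 9 without the second stimulated library, 8 without the third, and 9 or 10 without any 1 of the unstimulated libraries.

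The largest differences between the cultures were those of Sema7a, Egr3 and Egr1. Sema7a, a membrane semaphorin, had 4.90, 5.46 and 5.77 in stimulated libraries, 2.87, 3.26 and 3.24 in unstimulated ones and 3.30, 3.15 and 3.36 in fresh ones, and was 4.76-fold higher in stimulated than in unstimulated cells (2.25 ± 0.30, adjusted p = 0.0019). Egr3 had 8.47, 8.76 and 9.06 in stimulated libraries, 6.62, 6.96 and 6.80 in unstimulated ones and 7.18, 7.20 and 7.09 in fresh ones (1.97 ± 0.20 against unstimulated cells, adjusted p = 0.000284). Egr1 had 9.96, 10.17 and 10.40 in stimulated libraries, 8.30, 8.27 and 8.39 in unstimulated ones and 9.38, 9.24 and 9.78 in fresh ones. For Egr1 the difference was 1.86 between the cultures and 0.71 between stimulated and fresh cells (0.60 and not called without the third stimulated or the second fresh library), and it was 1.14 lower in unstimulated than in fresh cells. Egr2 was higher by 1.38, the zinc finger gene Hivep3 by 1.78, Ccr4 by 1.72 and Sh3bp2 by 1.69. Tnf had 7.15, 7.27 and 7.38 in stimulated libraries, 5.93, 6.09 and 6.04 in unstimulated ones and 6.38, 6.29 and 6.6 in fresh ones, a difference of 1.25 between the cultures (adjusted p = 0.0019). The lipid transfer protein gene Pitpnm2 was higher by 1.49, the sulfotransferase gene Chst2 by 1.33, the repressor gene Gfi1 by 1.19 and Tnfrsf19 by 1.18. Smaller differences were seen for Tacc2 at 1.01, Tuba1c at 0.94, Ephx1 at 0.93, Bcl2a1b, a survival gene with near-identical paralogs among which reads may be split, at 0.85, Srgn at 0.73, Spred2 at 0.72, Slamf1 at 0.70, Tnip2 at 0.56, Sla at 0.55 and the sterol gene Cyp51 at 0.48. The single gene lower with stimulation was Acot4, an acyl-CoA thioesterase gene, with 4.46, 4.31 and 4.41 in stimulated libraries, 5.40, 5.34 and 5.50 in unstimulated ones and 4.87, 4.63 and 4.83 in fresh ones (-1.02 ± 0.13, adjusted p = 0.00185). Mettl1, Ptpn7, Fosl2 and Pprc1 differed between the cultures by 0.91, 0.75, 0.72 and 0.53, and were not called between stimulated and fresh cells. They were lower in unstimulated than in fresh cells by 0.99, 1.07, 0.99 and 0.54. All 31 genes called between the cultures are named, whatever the rule for naming, and stimulated and unstimulated libraries did not overlap for any of them. The calls of 11 of the 31 held with each library of the contrast left out in turn, those of Sema7a, Egr3, Egr1, Egr2, Tnf, Chst2, Tnfrsf19, Spred2, Dusp6, Lcp2 and Acot4. GC slopes separated these groups too, as given above. With the GC slope as a covariate 30 of the 31 calls were kept, and with that and without the third fresh library 18 were.

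**Figure D5:**
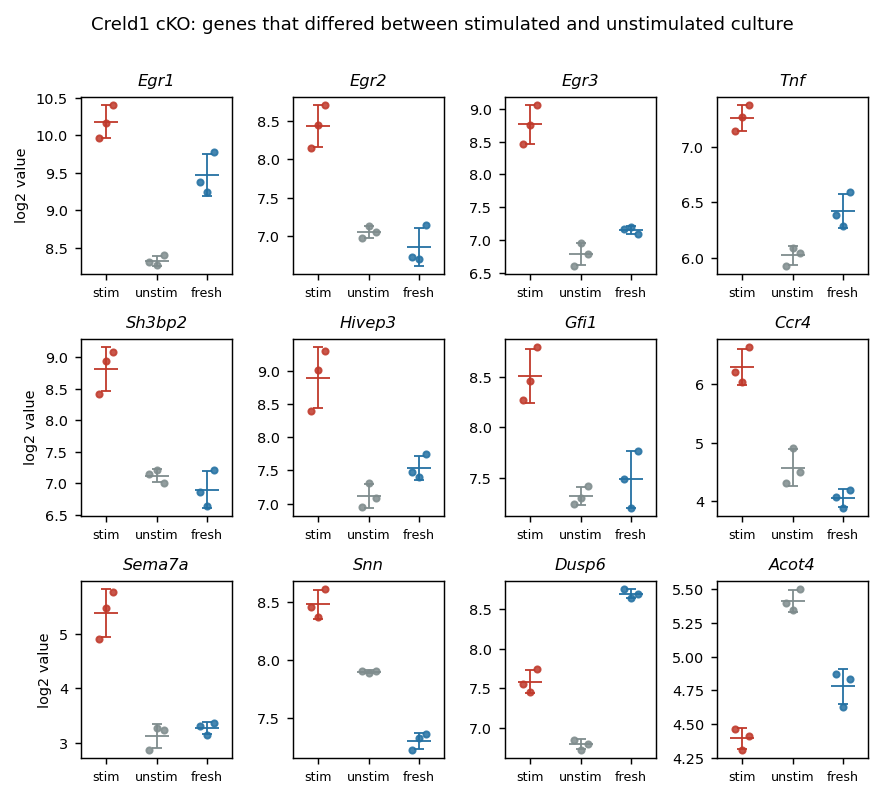
Deposited log2 value of 12 of the 31 genes called between stimulated and unstimulated Creld1 cKO cells, in every library, with stimulated, unstimulated and fresh cells from left to right. Points are libraries, the mark is the mean and the bar is 1 SD (n = 3), and the scale differs between panels. The 3 stimulated libraries lie above the 3 unstimulated ones in every panel but Acot4, and Dusp6 is the one where fresh cells are higher than both.

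The promoter of Egr2 is shown because it belongs to a gene that needed stimulation. It lies at chr10:67537749-67537868 (plus strand, GRCm38.p6, RefSeq, 1 of 5 listed starts). This start was taken as the first listed whose window holds both motifs marked below. Capitals mark TGACG at -111 to -107, the same motif on the opposite strand, where it reads CGTCA, at -55 to -51, and a CArG box, the motif of serum response factor, at -72 to -63.
Egr2: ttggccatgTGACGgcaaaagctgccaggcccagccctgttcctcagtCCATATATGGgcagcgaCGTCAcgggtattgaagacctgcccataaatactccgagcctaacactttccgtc

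The CArG box was found in 1.47% of all windows, for 1.26% of tested genes with a window, and for none of the 14 genes with a window that were lower by over 2-fold. Its share among the genes that needed stimulation was not computed, and the Egr2 window was picked for holding it. The absence of these letters from a window says nothing of the factor.

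Control cells were used to ask whether the change from fresh to stimulated cells differed with genotype, and no gene passed (limma, 0 of 10877, or 0%, with 414, or 3.81%, at an unadjusted p under 0.05). The log2 difference of Jun was -3.20 in the cKO and -3.37 in the control, that of Fos -3.02 in the cKO and -3.00 in the control, and that of Tnfaip3 -2.25 in the cKO and -2.42 in the control. Oas2 differed by -2.14 in the cKO and -2.02 in the control, Igf1r by 1.85 in the cKO and 1.74 in the control, and Egr2 by 1.57 in the cKO and 1.44 in the control. Creld1 itself differed by 0.28 in the cKO and 0.16 in the control. The genes of smallest p are given as values that did not pass. Atg4c, an autophagy protease gene, had -0.75 in the cKO and 0.56 in the control, a difference of -1.31 ± 0.24 (adjusted p = 0.526), and Acot4 had -0.39 in the cKO and 0.46 in the control, a difference of -0.85 ± 0.18. The interferon-responsive genes Ifi44 and Phf11b had differences between genotypes of -1.04 and -0.59, and Sall1, a zinc finger gene, of -1.24. Ctsw, Ggnbp1, Gng3 and Ehd4 had differences of 0.74, 0.67, 0.55 and 0.90 in the other direction, and the genes named from Acot4 on had an adjusted p of 0.666. A p that misses the threshold does not show that the genotypes responded alike, and the SE of this difference was 0.20 for the median gene.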

How the data were processed

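RNA from sorted splenic CD4+ T cells of Creld1 cKO and control mice was sequenced as 18 libraries, 3 in each of 6 groups. Libraries were made with the TruSeq v2 kit, which does not mark strand, and read as 75 bp single ends, per the labels' protocols, so overlapping and antisense genes cannot be told apart. The authors deposited normalized log2 values of 15137 genes. The submitters' processing notes name the mouse build mm10, HISAT2 2.1.0, CASAVA 1.8, SAMtools 1.4, DESeq2 and Partek 6.6 without their roles, and the log2 transformation is not stated. Depth per library is unknown, so no counting intervals are given, and all 18 columns were used.

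Genes with a log2 value of at least 3.32 in 3 or more libraries were kept. limma 3.58.1 in R 4.3.3 was fitted to all 18 libraries with 1 mean for each group and an intensity trend, and p-values were adjusted by Benjamini-Hochberg over 10877 genes. In each sentence with an adjusted p it is limma's, and ± after a log2 difference is its SE. Scripts were tested on simulated data. GENCODE M21 gave transcript GC content for 99.3% of tested genes. The members and gene lists were chosen with earlier results of these data known. Named genes were the 15 largest rises and falls with separate libraries and a higher mean of at least 6.64, the preselected and the 4 most changed members of each list up and down, up to 8 of each class of need for stimulation, and the 5 of smallest p in each direction between genotypes. Filters, scaling, variance models, a GC covariate, a pseudocount of 5 and left-out libraries were varied. Some genes, though named by that rule, are not reported here.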

Additional observations from a re-analysis of the deposited data

Results flagged for a closer look

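Both genes below were noted because stimulated and fresh libraries did not overlap in either genotype and the direction differed, all 3 cKO libraries moving one way and all 3 control libraries the other. Acot4, an acyl-CoA thioesterase gene, changed by -0.39 in the cKO and 0.46 in the control, a log2 difference between genotypes of -0.85 that did not pass the limma interaction test (adjusted p = 0.666). Atg4c, an autophagy protease gene, changed by -0.75 in the cKO and 0.56 in the control, a difference of -1.31 that did not pass either (adjusted p = 0.526).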

How the results depend on the processing

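Counts of called genes moved more than their directions. Between stimulated and fresh cKO cells 3294 genes were called, against 753 when only the 6 libraries compared were fitted and 1951 to 5799 with 1 library left out, highest without the third fresh library. Between 753 and 3282 of the 3294 were called in the same direction under each alternative, and 0 in the opposite one. Of differences over 2-fold there were 26, and 7 from only the libraries compared, 13 with library weights and 43 with the GC covariate. All 26 were called at the first threshold under every setting. Between stimulated and unstimulated cells 31 genes were called, with 2349 from only the libraries compared, 6169 with library weights, 153 with library-number runs as a block, 72 with the GC covariate and 11 to 336 with 1 library left out. Unstimulated against fresh cells gave 2408, with 811 from only the libraries compared, 4936 with the GC covariate and 4372 with that and without the third fresh library. The genotype difference gave 0 genes, and 2922 with library weights. Genes that needed stimulation, for the whole change or like Snn for a part, numbered 24. There were 2901 under library weights, 81 under that block, 41 under the GC covariate, 13 under that without the third fresh library and 8 to 236 with 1 library left out. The weights, 0.0122 to 14.2, came from a fit that stopped before converging. For the other counts the cause was not tested. The combined GC setting, and list counts without the third fresh library or with the GC covariate, were chosen after seeing the data. The labels carry no replicate number, and the block is on 3 runs of library numbers that no label ties to a batch or animal; it gave 3839 genes between stimulated and fresh cells.

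Of the named genes called between stimulated and fresh cells, 152 of 185 kept their call without each library in turn. Such calls were lost for 60 with only the libraries compared fitted, 46 with the GC covariate without the third fresh library, 15 with library weights, 7 each with the GC covariate and quantile normalization, 6 without a filter, 5 with median centring, 3 without the trend and 1 with TMM-type scaling. Some differences that were not called, most of them close to 0, changed sign. With median-centred libraries Ddit3 had -0.026, Lck -0.049 and Nr4a1 -0.0077, and with quantile normalization Btla had 0.013, Ddit3 -0.042, Pprc1 0.026 and Slc2a1 -0.0496. With library weights Cd28 had -0.0199, Foxp3 0.074, Gata3 0.018, Il7r -0.0705, Klf2 0.011, Mettl1 0.087 and Myc 0.21. With the GC covariate Btla had 0.084, and first in all libraries, then without the third fresh one, Creld1 had -0.10 and -0.44, Creld2 -0.022 and -0.0302, Ddit3 -0.28 and -0.27, Hk2 -0.18 and -0.061, Lck -0.42 and -0.37, Nr4a1 -0.75 and -0.72 and Slc2a1 -0.41 and -0.31. Orai1 had -0.037 with both changes. With 1 library left out Btla ranged from -0.27 to 0.0074, Ddit3 from -0.13 to 0.29, Foxp3 from -0.29 to 0.017, Gata3 from -0.36 to 0.067, Hk2 from -0.26 to 0.39, Il7r from -0.021 to 0.22 and Klf2 from -0.28 to 0.041. Further, Lck ranged from -0.17 to 0.36, Mettl1 from -0.14 to 0.0301, Myc from -0.29 to 0.069, Nr4a1 from -0.30 to 0.64, Pprc1 from -0.064 to 0.061 and Slc2a1 from -0.21 to 0.46.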
